A study of Mus musculus with 8 samples.

Results

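The genes of prostaglandin and leukotriene synthesis and sensing described here, in mouse bone-marrow-derived macrophages (BMDM), were 10 chosen by name: Pla2g4a, Pla2g7, Ptgs1, Ptgs2, Ptges, Ptger2, Ptger4, Alox5, Alox5ap and Ltc4s. All 10 were found among the 34745 genes of the count table through their Ensembl identifiers, and all 10 had enough reads to enter the tests of 14040 genes. The marrow cells were cultured with M-CSF, the macrophage growth factor, at 20 ng/ml, and messenger RNA was sequenced from 4 groups of 2 libraries each. The groups were KAT8-deficient cells with R848, KAT8-deficient cells left untreated, wild-type (WT) cells with R848 and WT cells left untreated, where R848 was given at 100 ng/ml for 6 h. KAT8 (MOF) is an acetyltransferase of histone H4, and R848, also called resiquimod, activates the endosomal RNA receptor TLR7. The titles call the mutant cells KAT8-cKO, for a conditional knockout, but the sources used here give neither its Cre driver nor the age and strain of the mice. Nothing in the labels ties the 2 libraries of a group to different mice or dishes. The p-values therefore rest on the spread between libraries, which may be technical.

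Eicosanoids are signalling lipids made from arachidonic acid, which cytosolic phospholipase A2 cuts from membrane phospholipids. The cyclooxygenases turn it into prostaglandin H2, from which terminal synthases make prostaglandin E2 and the other prostanoids, while 5-lipoxygenase and its helper protein FLAP start the leukotriene branch. Macrophages are a major source of both classes, and inducible cyclooxygenase with the inducible prostaglandin E synthase is a classical output of Toll-like receptor signalling.

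Kat8 itself checked the labels: it lay between 8.76 and 10.8 CPM in the 4 KAT8-deficient libraries, against 15.98 to 18.0 CPM in the 4 WT libraries (CPM, the usual reads-per-library unit, here on the TMM-normalised library size). All 8 macrophage markers looked up were detected in every library, and their summed level was 8535 to 9626 CPM in KAT8-deficient and 14790 to 16210 CPM in WT libraries. Without Lyz2 the sum was 3332 to 3683 CPM in KAT8-deficient and 3720 to 4070 CPM in WT libraries. The cultures also held RNA of fibroblast and stromal type, with 11 of 11 such markers detected, and in bulk RNA fewer cells of a type and less RNA per cell cannot be told apart. Total counts were 18550977 to 21384532 per library.

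Ptgs2 and Ptges are the inducible pair of prostaglandin E2 synthesis. Their messenger RNAs rose with R848 in WT cells and were lower in KAT8-deficient than in WT cells under R848. Ptgs1, the constitutive cyclooxygenase gene, ran the other way: it fell with R848 in WT cells and was higher in KAT8-deficient cells in both states. No member passed the test for R848 in KAT8-deficient cells, where 0.634% of all genes tested did. For a difference of the R848 response between genotypes none passed either, where 0.228% of all genes did.

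**Figure D1:**
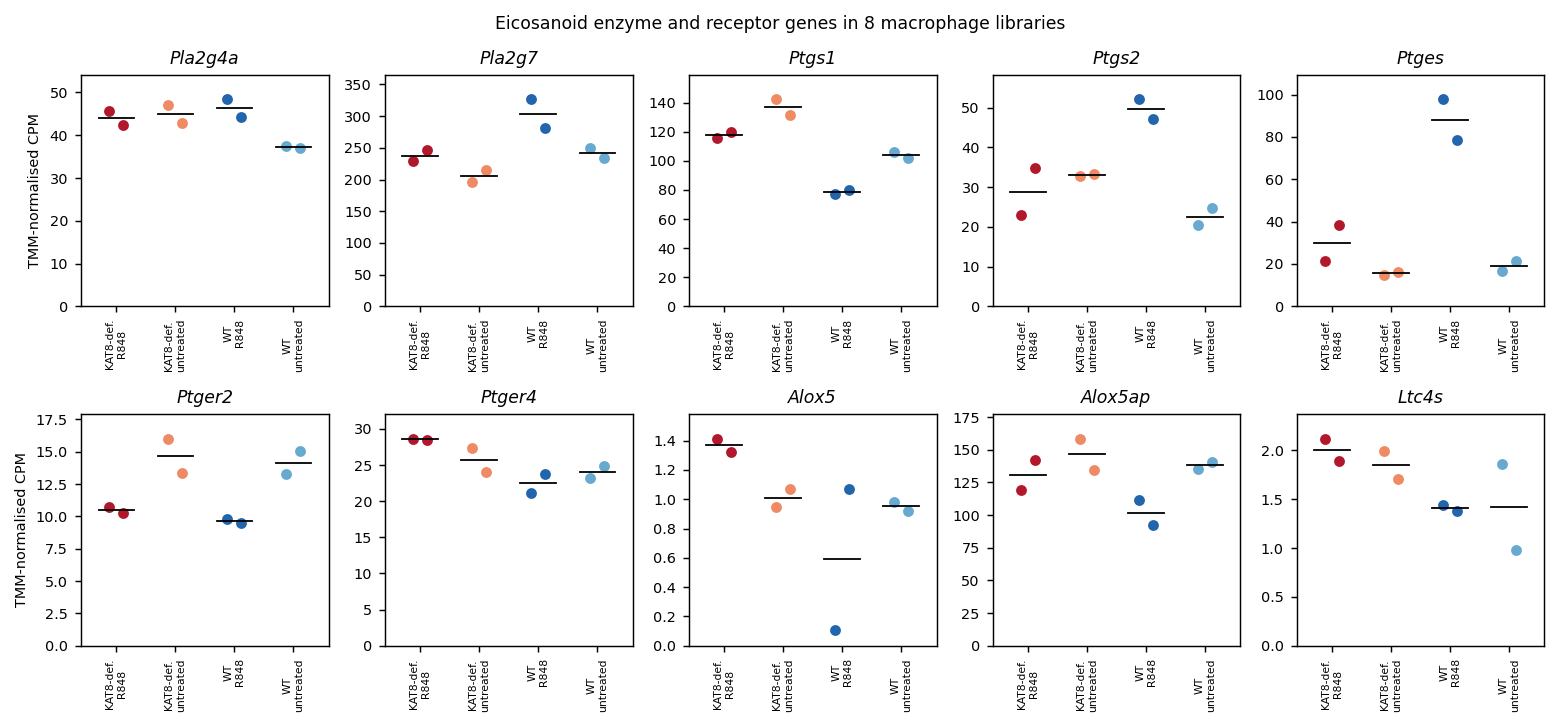
TMM-normalised CPM (y axis, from 0) of the 10 genes in the 8 libraries by group; points are libraries and short lines the mean of 2. Ptgs2 and Ptges are highest in both WT R848 libraries, Ptgs1 is lowest there, and Alox5 in WT cells with R848 has 1 library at 0.107 CPM and the other at 1.07 CPM.

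Levels of different genes are compared per kilobase of merged exon length. In untreated WT libraries Alox5ap was at 95.4 to 99.2 CPM per kb and Pla2g7 at 80.7 to 86.2, followed by Ptgs1 at 26.2 to 27.3. Pla2g4a, at 5.80 to 5.86 CPM per kb, was next. Ptgs2, at 4.46 to 5.38, and Ptges, at 4.26 to 5.43, could not be ordered between themselves, since their ranges overlapped. Ptger4 held 3.48 to 3.75 and Ptger2 2.56 to 2.90 CPM per kb. Ltc4s, at 0.964 to 1.84, and Alox5, at 0.225 to 0.238, had the lowest 2 means of the 10 in each of the 4 groups. In KAT8-deficient R848 libraries Ltc4s, at 1.86 to 2.09, and Ptger2, at 1.97 to 2.06, overlapped and could not be ordered. Alox5ap thus stood at the top of the 10 in untreated WT cells and Alox5, whose enzyme its product serves, at the bottom, with 2 to 30 reads per library over all groups. Under R848 in WT cells Ptges reached 20.0 to 24.9 CPM per kb, overlapping Ptgs1 at 19.8 to 20.6.

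Phospholipases come first in the pathway. Pla2g4a (chromosome 1, 149829618 to 149961290, minus strand, GRCm38) encodes cytosolic phospholipase A2 alpha, the enzyme that frees arachidonic acid. It held 45.6 and 42.5 CPM in KAT8-deficient R848 libraries, 47.0 and 43.0 in KAT8-deficient untreated, 48.4 and 44.2 in WT R848 and 37.4 and 37.1 in WT untreated libraries. The untreated WT pair was below every other library. The rise with R848 in WT cells passed the test (log2 0.31, SE 0.081, edgeR adjusted p = 0.0363), while the change in KAT8-deficient cells was -0.03 (SE 0.081, edgeR adjusted p = 0.9). Pla2g7 (chromosome 17, 43568098 to 43612201, plus strand) encodes a secreted phospholipase that inactivates platelet-activating factor. It stood at 229 and 247 CPM in KAT8-deficient R848, 196 and 215 in KAT8-deficient untreated, 326 and 282 in WT R848 and 250.3 and 234 in WT untreated libraries. It rose with R848 in WT cells (log2 0.33, SE 0.087, edgeR adjusted p = 0.0397) and was lower in KAT8-deficient than WT cells under R848 (log2 -0.35, SE 0.087, edgeR adjusted p = 0.0294). These phospholipase differences were small, within 1.28-fold. Some macrophage markers moved with Pla2g7. With R848 in WT cells 2 of the 8, Adgre1 and Csf1r, rose and 2, Mertk and Fcgr1, fell, where 6.94% of all genes rose and 6.7% fell. Under R848 Adgre1, Csf1r and Lyz2 were lower and Fcgr1 higher in KAT8-deficient cells, where 5.47% of all genes were lower and 8.14% higher. Csf1r averaged 839 CPM in KAT8-deficient R848, 719 in KAT8-deficient untreated, 1101 in WT R848 and 860.5 in WT untreated libraries. The means of Pla2g7 had the same order of the groups. For both genes the KAT8-deficient R848 and WT untreated libraries overlapped and could not be ordered. The part of these markers in the Pla2g7 result was not tested.

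The cyclooxygenases Ptgs1 (COX-1) and Ptgs2 (COX-2) carry out the same reaction, the first as a constitutive and the other as an inducible enzyme. The windows around the annotated starts of both genes and of Ptges are shown because these 3 genes give the main contrast. They are RefSeq promoter sequences of build GRCm38.p6, from 250 bases before to 30 after the start, read 5′ to 3′ on the gene's strand. The Ptgs2 window is chr1:150099781-150100060 (plus strand), the Ptges window chr2:30903268-30903547 (minus strand) and the Ptgs1 window chr2:36230176-36230455 (plus strand). The RefSeq start used for Ptges lies inside the gene span given below, 30889471 to 30929863, and not at its outer end. Capitals mark any match, on either strand, to 8 short motifs.
Ptgs2: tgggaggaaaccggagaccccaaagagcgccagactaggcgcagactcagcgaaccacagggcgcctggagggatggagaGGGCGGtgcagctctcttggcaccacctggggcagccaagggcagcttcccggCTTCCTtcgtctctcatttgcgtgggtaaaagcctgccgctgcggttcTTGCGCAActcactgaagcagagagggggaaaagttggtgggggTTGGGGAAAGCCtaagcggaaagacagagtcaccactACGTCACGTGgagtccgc
Ptges: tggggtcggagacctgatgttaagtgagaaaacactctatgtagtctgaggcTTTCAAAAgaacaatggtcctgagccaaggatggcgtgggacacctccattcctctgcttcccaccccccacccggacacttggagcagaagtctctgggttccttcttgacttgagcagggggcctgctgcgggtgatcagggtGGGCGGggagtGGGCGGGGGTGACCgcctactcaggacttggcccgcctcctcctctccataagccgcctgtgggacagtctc
Ptgs1: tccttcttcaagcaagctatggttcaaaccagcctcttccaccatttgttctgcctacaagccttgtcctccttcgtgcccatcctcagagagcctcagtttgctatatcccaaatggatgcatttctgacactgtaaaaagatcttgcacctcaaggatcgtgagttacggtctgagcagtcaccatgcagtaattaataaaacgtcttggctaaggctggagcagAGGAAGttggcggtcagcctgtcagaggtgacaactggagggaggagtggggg
The motifs searched were a TATA box (letters TATAAA), a loose NF-kB site (GGG, any 5 bases, then CC), a C/EBP site (TTNNGNAA), a cyclic AMP response core called CRE here (TGACGT), an AP-1 site (TGANTCA), an ETS core (AGGAAG), a GC box (GGGCGG) and an E-box (CACGTG). The Ptgs2 window held 1 NF-kB, 2 C/EBP, 1 CRE, 1 E-box, 1 ETS and 1 GC box match, where the CRE and the E-box share bases, as do the NF-kB match and a C/EBP match. The Ptges window held 1 NF-kB match, 1 C/EBP match and 2 GC boxes, the NF-kB match sharing bases with a GC box. In the Ptgs1 window the only match was 1 ETS core. Of all 32851 such windows, 48.9% held the NF-kB letters, 39.3% the C/EBP, 32.9% the ETS and 34.7% the GC box letters. The CRE was in 7.26%, the E-box in 6.79%, AP-1 in 7.46% and TATA in 13.1% of windows. Among the other members with a window, Ptger4 and Alox5, which edgeR called in no comparison, each held 3 NF-kB matches. Those of Ptger4 at positions -189 and -188 from the start share bases, on opposite strands. Pla2g7 and Pla2g4a (both windows), which rose with R848 in WT cells, held 0 NF-kB matches, as did Ptger2 and Ltc4s. A match describes letters and not a bound site.

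Ptgs2 (chromosome 1, 150100031 to 150108227, plus strand) had 22.9 and 34.9 CPM in KAT8-deficient R848 libraries and 32.8 and 33.3 CPM in KAT8-deficient untreated libraries. In WT cells it had 52.1 and 47.1 CPM with R848 and 20.4 and 24.7 CPM untreated. Both WT R848 libraries were above all 6 others, and the KAT8-deficient R848 pair spread around the KAT8-deficient untreated pair. R848 raised Ptgs2 2.20-fold in WT cells (log2 1.14, SE 0.18, edgeR adjusted p = 0.00377). In KAT8-deficient cells the log2 change was -0.19 (SE 0.18, edgeR adjusted p = 0.666). Under R848 Ptgs2 was lower in KAT8-deficient than in WT cells (log2 -0.78, SE 0.17, edgeR adjusted p = 0.02). Without R848 the genotype difference had the opposite sign, 0.55 (SE 0.18), and did not pass (edgeR adjusted p = 0.131). The groups did not overlap, which with 2 libraries each is a weak sign. Ptger2 and Ltc4s did not overlap between genotypes under R848 either, at edgeR adjusted p of 0.601 and 0.336.

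Ptges (chromosome 2, 30889471 to 30929863, minus strand) encodes microsomal prostaglandin E synthase 1, which makes prostaglandin E2 from the cyclooxygenase product. It had 21.4 and 38.2 CPM in KAT8-deficient R848 libraries and 14.6 and 16.4 CPM in KAT8-deficient untreated libraries. WT cells had 97.7 and 78.6 CPM with R848 and 16.7 and 21.3 CPM untreated. The WT R848 pair was at least 2-fold above every other library. R848 raised it 4.64-fold in WT cells (log2 2.21, SE 0.25, edgeR adjusted p = 0.000697). In KAT8-deficient cells the 2 groups did not overlap either, but the change of 0.94 (SE 0.25) did not pass (edgeR adjusted p = 0.164). Under R848 Ptges was lower in KAT8-deficient cells (log2 -1.57, SE 0.24, edgeR adjusted p = 0.00358), and untreated it was at -0.29 (SE 0.26, edgeR adjusted p = 0.583).

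Ptgs1 (chromosome 2, 36230426 to 36252272, plus strand) had 116 and 119.8 CPM in KAT8-deficient R848 libraries and 142 and 131 CPM in KAT8-deficient untreated libraries. WT cells had 77.1 and 79.9 CPM with R848 and 106 and 102 CPM untreated. The 4 groups did not overlap. Ptgs1 fell with R848 in WT cells (log2 -0.41, SE 0.064, edgeR adjusted p = 0.00401), and in KAT8-deficient cells the change was -0.22 (SE 0.063, edgeR adjusted p = 0.192). It was higher in KAT8-deficient than in WT cells under R848 (log2 0.59, SE 0.064, edgeR adjusted p = 0.00087) and untreated (log2 0.40, SE 0.063, edgeR adjusted p = 0.0134). Fibroblast and stroma markers moved with genotype in the same direction. Of the 11 on that list, 9 were higher and 0 lower in KAT8-deficient cells under R848, where 8.14% of all genes were higher and 5.47% lower. Untreated, 8 were higher and 0 lower, where 2.91% and 1.36% of all genes were. Their summed level was 4051 to 4145 CPM in KAT8-deficient R848, 4571 to 4816 in KAT8-deficient untreated, 2761 to 2966 in WT R848 and 3287 to 3806 in WT untreated libraries. Not every marker had this order: Pdgfra averaged 336, 304, 279.5 and 224.5 CPM in these 4 groups. With R848 in WT cells 5 of the 11 fell and Pdgfra rose, where 6.7% of all genes fell and 6.94% rose. Of 4 mesothelial markers, 4 were higher in KAT8-deficient cells under R848 and 1 untreated, where 8.14% and 2.91% of all genes were. Their sums were 313 to 379 CPM in KAT8-deficient and 204 to 240 CPM in WT libraries over both states. The part of these cell types in the Ptgs1 difference was not tested.

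The balance of the cyclooxygenase messenger RNAs follows from these levels. Per kilobase, Ptgs2 made up 14.4% and 19.8% of the Ptgs1 and Ptgs2 sum in KAT8-deficient R848 libraries and 16.4% and 17.7% in KAT8-deficient untreated libraries. In WT cells the share was 36.4% and 33.4% with R848, against 14.04% and 17.1% untreated. Only the WT R848 libraries lay outside the range of 14.04% to 19.8% that held the other 6.

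**Figure D2:**
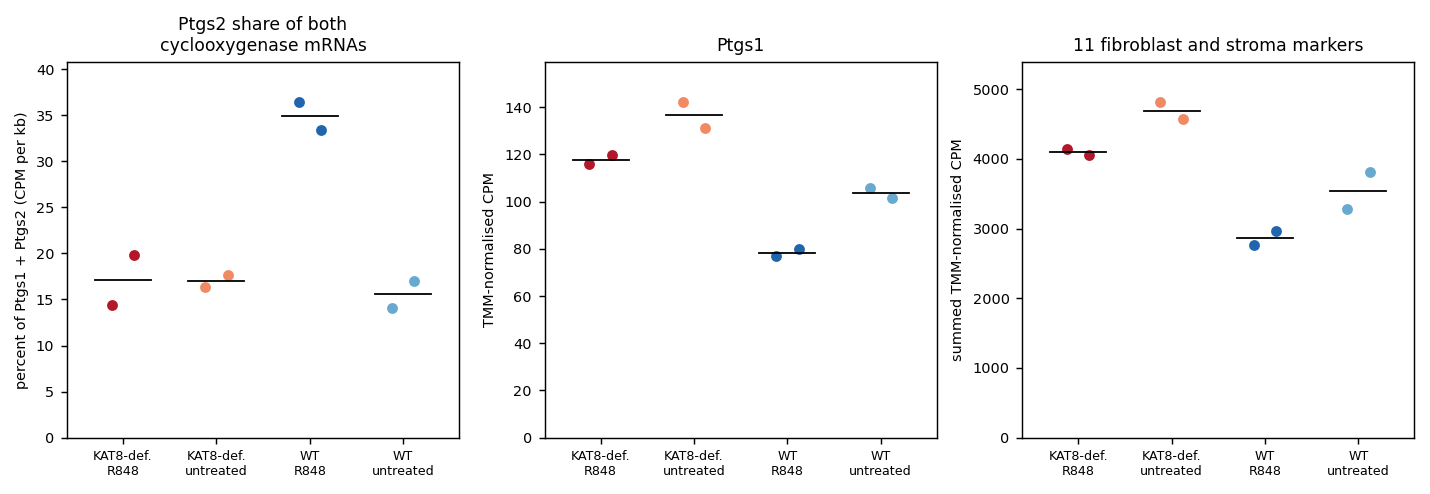
Ptgs2 as a percent of Ptgs1 plus Ptgs2 (CPM per kb, left), Ptgs1 in CPM (middle) and the summed CPM of 11 fibroblast and stroma markers (right) by group; points are libraries, short lines the mean of 2, and each y axis starts at 0. The Ptgs2 share is 33.4% and 36.4% in WT R848 libraries and at most 19.8% in the others, while Ptgs1 and the stromal sum have the same order of the 4 groups. Not every marker in the sum has that order.

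Ptger2 and Ptger4 encode the prostaglandin E2 receptors EP2 and EP4, which raise cyclic AMP. Ptger2 (chromosome 14, 44988195 to 45003820, plus strand) had 10.7 and 10.2 CPM in KAT8-deficient R848, 16.01 and 13.3 in KAT8-deficient untreated, 9.81 and 9.496 in WT R848 and 13.3 and 15.04 in WT untreated libraries. All 4 R848 libraries were below all 4 untreated ones. The fall passed in WT cells (log2 -0.55, SE 0.13, edgeR adjusted p = 0.0214). In KAT8-deficient cells it was -0.49 (SE 0.12) and did not pass (edgeR adjusted p = 0.145), and the difference between these responses, the interaction, was 0.06 (SE 0.18, edgeR adjusted p = 0.932). Ptger4 (chromosome 15, 5206661 to 5244187, minus strand) passed in no comparison by edgeR as described. It had 28.7 and 28.4 CPM in KAT8-deficient R848, 27.3 and 24.1 in KAT8-deficient untreated, 21.2 and 23.7 in WT R848 and 23.2 and 24.9 in WT untreated libraries. Its nearest approach was the genotype difference under R848 (log2 0.35, SE 0.099, edgeR adjusted p = 0.0521), where the groups did not overlap. That difference passed with no low-count filter (edgeR adjusted p = 0.0445) and by limma-voom (adjusted p = 0.0483), and by the DESeq2 Wald test it did not (adjusted p = 0.134).

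On the leukotriene side, Alox5ap (chromosome 5, 149264767 to 149288153, plus strand), encoding FLAP, had 119 and 142 CPM in KAT8-deficient R848, 159 and 134 in KAT8-deficient untreated, 111 and 92.4 in WT R848 and 136 and 141 in WT untreated libraries. It fell with R848 in WT cells (log2 -0.44, SE 0.12, edgeR adjusted p = 0.043). In KAT8-deficient cells the groups overlapped (log2 -0.17, SE 0.12, edgeR adjusted p = 0.577). Under R848 its genotype difference was 0.36 (SE 0.12, edgeR adjusted p = 0.0855), which passed with no low-count filter (edgeR adjusted p = 0.0292) and by the DESeq2 Wald test (adjusted p = 0.0337).

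Alox5 (chromosome 6, 116410077 to 116461178, minus strand), encoding 5-lipoxygenase, was counted at 30 and 28 reads in KAT8-deficient R848, 18 and 20 in KAT8-deficient untreated, 2 and 21 in WT R848 and 21 and 17 in WT untreated libraries. It passed in no comparison, and the 2 WT R848 libraries disagreed. Its WT response was -0.67 (SE 0.66, edgeR adjusted p = 0.57), -3.09 without WT R848 replicate 2 (edgeR adjusted p = 0.0272) and 0.16 without WT R848 replicate 1 (edgeR adjusted p = 0.868). Under R848 its genotype difference was 1.19 (SE 0.62, edgeR adjusted p = 0.257), and 3.61 without WT R848 replicate 2 (edgeR adjusted p = 0.0143). The 5 tested genes nearest to it over the 8 libraries, after centring log2 CPM on each gene's mean, were Fam107b, Zfp629, Tnxb, Syn1 and Ap3m1, with root mean square differences of 0.16 to 0.24. Fam107b had 20.3 CPM in WT R848 replicate 1 and 65.7 in WT R848 replicate 2, and Ap3m1 had 27.4 and 61.3. A low value in that library is part of the likeness by which these genes were picked. Ltc4s (chromosome 11, 50236461 to 50238616, minus strand) encodes leukotriene C4 synthase and had 45 and 40 reads in KAT8-deficient R848, 38 and 32 in KAT8-deficient untreated, 27 and 27 in WT R848 and 40 and 18 in WT untreated libraries. It passed in no comparison, its largest difference being 0.51 between genotypes under R848 (SE 0.31, edgeR adjusted p = 0.336).

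Mast cells, basophils and neutrophils also use this branch. Of 9 mast cell and basophil markers, Fcer1a was at 0 counts in all 8 libraries, and the list summed to 2.50 to 3.82 CPM in KAT8-deficient and 1.41 to 2.76 CPM in WT libraries. Of 10 neutrophil markers, Ly6g was at 0 counts in all 8, and the list summed to 49.9 to 61.03 CPM in KAT8-deficient and 65.0 to 75.5 CPM in WT libraries, most of it from Csf3r.

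Counted over the 10 genes, 4 rose and 3 fell with R848 in WT cells, so that 7 of 10 passed where 13.6% of all genes tested did, 6.94% higher and 6.7% lower. Their median log2 change was -0.06, beside 0.00 over all genes. The genes that rose were Ptgs2, Ptges, Pla2g4a and Pla2g7, and those that fell were Ptgs1, Ptger2 and Alox5ap. Only Ptgs1, Ptgs2 and Ptges passed without any of the 8 libraries. Fewer members passed in each refit without 1 library, and fewer of all genes tested did so as well. Ptger2 was lost without either WT R848 library or WT untreated replicate 2 (adjusted p 0.0952 to 0.116), Alox5ap without WT R848 replicate 2 or either WT untreated library (adjusted p 0.0881 to 0.21), Pla2g4a without KAT8-deficient R848 replicate 1, KAT8-deficient untreated replicate 1 or any WT library (adjusted p 0.0503 to 0.24), and Pla2g7 without any library other than WT R848 replicate 2 (adjusted p 0.0518 to 0.26). With the replicate number as a block, Pla2g7 (adjusted p = 0.0529) and Alox5ap (adjusted p = 0.054) were lost and 5 remained.

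With R848 in KAT8-deficient cells, edgeR called 0 of the 10 genes, where 0.634% of all genes passed (0.499% higher and 0.135% lower), and 4 had an unadjusted p under 0.05. DESeq2 and limma-voom also called 0, where 238 and 85 of all genes passed. The median log2 change was 0.04, beside 0.00 over all genes. Ptges passed without KAT8-deficient R848 replicate 1 (log2 1.29, adjusted p = 0.0151), the library in which it was lower.

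Between genotypes under R848, Ptgs1 was higher and Ptgs2, Ptges and Pla2g7 were lower in KAT8-deficient cells, so that 4 of 10 passed where 13.6% of all genes did, 8.14% higher and 5.47% lower. The median log2 difference was 0.23, beside -0.01 over all genes. This comparison and the WT response share the WT R848 libraries. Ptgs1 and Ptges passed whichever library was left out. Ptgs2 did not pass without KAT8-deficient R848 replicate 1 (log2 -0.51, adjusted p = 0.06), WT R848 replicate 1 (adjusted p = 0.122) or WT R848 replicate 2 (adjusted p = 0.0597), and Pla2g7 did not without either KAT8-deficient R848 library or WT R848 replicate 1 (adjusted p 0.0548 to 0.197). Fewer of all genes tested also passed in each refit without 1 library. Between untreated genotypes only Ptgs1 passed, 1 of 10 where 4.27% of all genes did (2.91% higher and 1.36% lower), with a median of 0.09 beside -0.01 over all genes. That call was lost without KAT8-deficient untreated replicate 1 (log2 0.34, adjusted p = 0.112) or either WT untreated library (adjusted p = 0.056 without the first and 0.0607 without the other). Ptgs2 passed there without either KAT8-deficient R848 library (adjusted p = 0.0341 and 0.0343), and the count was then 2.

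**Figure D3:**
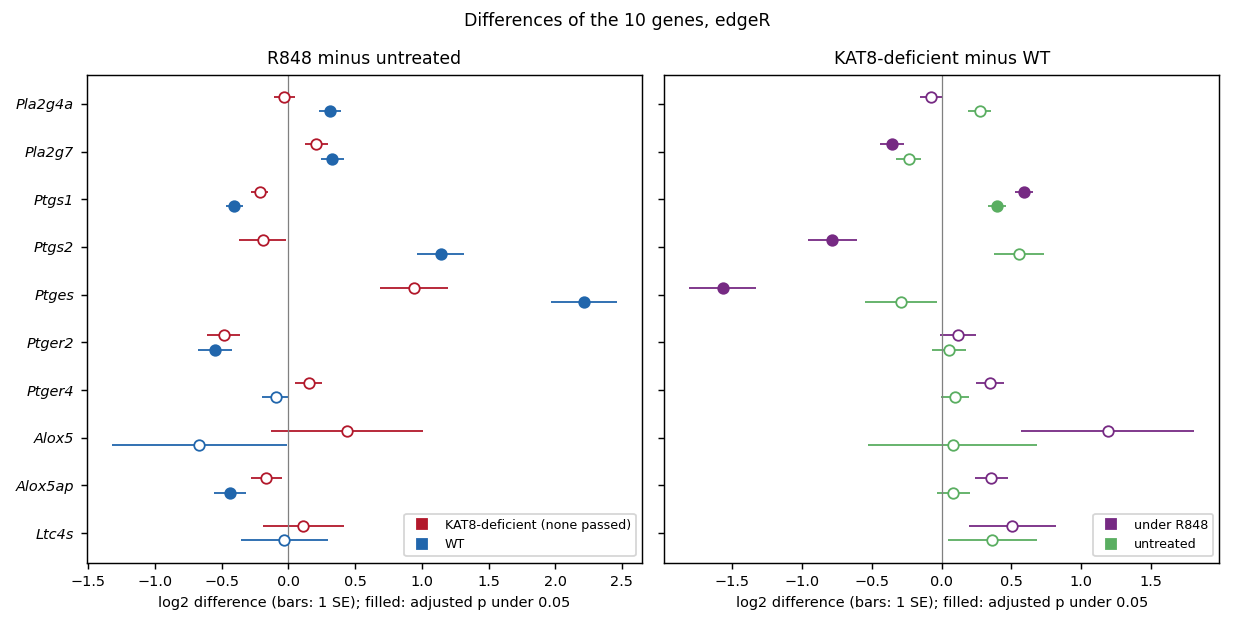
Log2 differences (x axis) of the 10 genes with R848 against untreated (left, KAT8-deficient above WT) and in KAT8-deficient against WT cells (right, under R848 above untreated); bars are 1 SE and filled points passed an edgeR adjusted p of 0.05. Ptges has the largest WT response of the 10, 2.21, and the largest genotype difference that passed, -1.57 under R848.

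The interaction asks whether the R848 response itself differed between genotypes. It was -1.33 for Ptgs2 (SE 0.25, edgeR adjusted p = 0.0713) and -1.28 for Ptges (SE 0.35, edgeR adjusted p = 0.186), in log2 units, where a negative value means a smaller rise in KAT8-deficient cells. EdgeR called 0 of the 10 genes, where 0.228% of all genes passed (0.057% higher and 0.171% lower). The median was 0.10, beside 0.01 over all genes. At an unadjusted p under 0.05 there were 3, namely Ptgs2, Ptges and Pla2g4a. DESeq2 called 1, Ptgs2 (log2 -1.34, DESeq2 adjusted p = 2.12e-05), where 231 of all genes passed, and limma-voom called 0, where 27 did. Without KAT8-deficient R848 replicate 2, edgeR called Ptgs2 (log2 -1.66, adjusted p = 0.00645) and Ptges (log2 -1.75, adjusted p = 0.0142). In that fit the lone KAT8-deficient R848 library is assumed to vary like the other groups.

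The 5 genes nearest to Ptgs2 over the 8 libraries, by the same centred distance, were Foxp4, Fam43a, Rnd1, Ahr and Cd14, with root mean square differences of 0.10 to 0.19. Foxp4 had 29.3 and 36.4 CPM in KAT8-deficient R848, 36.7 and 39.9 in KAT8-deficient untreated, 56.6 and 47.4 in WT R848 and 24.3 and 28.4 in WT untreated libraries. Cd14, the lipopolysaccharide co-receptor, had 135 and 174 CPM in KAT8-deficient R848, 125 and 131 in KAT8-deficient untreated, 251 and 234 in WT R848 and 98.2 and 111 in WT untreated libraries. Both were highest in the WT R848 libraries and lowest in the WT untreated ones, a pattern close to that of Ptgs2, for which they were picked.

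A further 70 genes of the wider pathways were looked up, and 53 had enough reads to be tested. With R848 in WT cells 8 of the 53 rose and 5 fell, where 6.94% of all genes tested rose and 6.7% fell. In KAT8-deficient cells 2 rose and 1 fell, where 0.499% and 0.135% of all genes did. Between genotypes 8 were higher and 9 lower in KAT8-deficient cells under R848, where 8.14% of all genes were higher and 5.47% lower. Untreated, 4 were higher and 4 lower, where 2.91% and 1.36% of all genes were. The fibroblast and mesothelial sums given beside Ptgs1 were also higher in KAT8-deficient cells in both states, and their part in the genes of these lists that were higher there was not tested. The median log2 value of the 53 was -0.06 for R848 in WT and 0.00 in KAT8-deficient cells, -0.01 between genotypes in either state and 0.04 for the interaction.

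Arachidonate release and remodelling had 16 tested genes. Daglb, a diacylglycerol lipase gene, had 217 and 202 CPM in KAT8-deficient R848, 305 and 294 in KAT8-deficient untreated, 121 and 127 in WT R848 and 275 and 303 in WT untreated libraries. It fell by 1.22 (SE 0.071, edgeR adjusted p = 7.11e-05) with R848 in WT cells and by 0.52 (SE 0.070, edgeR adjusted p = 0.0287) in KAT8-deficient cells, in log2 units. The fall in KAT8-deficient cells did not pass without KAT8-deficient R848 replicate 2, either KAT8-deficient untreated library or either WT R848 library (adjusted p up to 0.199). Pla2g15, a lysosomal phospholipase A2, fell by 0.59 with R848 in WT cells (SE 0.060, edgeR adjusted p = 0.000388) and was higher by 0.45 in KAT8-deficient cells under R848 (SE 0.060, edgeR adjusted p = 0.00198). Acsl4, which couples arachidonic acid to coenzyme A, rose by 0.34 with R848 in WT cells (SE 0.060, edgeR adjusted p = 0.00684, and 0.0657 without WT R848 replicate 1). Mgll, monoacylglycerol lipase, was lower in KAT8-deficient cells by 0.77 under R848 (SE 0.070, edgeR adjusted p = 0.000503). Acsl1, another acyl-CoA synthetase, was lower in untreated KAT8-deficient cells by 1.06 (SE 0.24, edgeR adjusted p = 0.0448), and passed in 2 of the 8 refits without 1 library.

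Among 9 tested prostanoid synthases, Hpgds, the haematopoietic prostaglandin D synthase, fell with R848 in WT cells (log2 -0.49, SE 0.073, edgeR adjusted p = 0.00297). It was higher in KAT8-deficient cells under R848 (log2 0.47, SE 0.073, edgeR adjusted p = 0.00388), with 110 and 105 CPM in KAT8-deficient and 76.7 and 78.5 CPM in WT libraries. Ptgis, the prostacyclin synthase, was higher in KAT8-deficient cells under R848 (log2 0.31, SE 0.064, edgeR adjusted p = 0.0143) and untreated (log2 0.41, SE 0.064, edgeR adjusted p = 0.0127), the first lost without either KAT8-deficient R848 library or WT R848 replicate 1 (adjusted p up to 0.115) and the other without either KAT8-deficient untreated library or WT untreated replicate 1 (adjusted p up to 0.0994). Ptgir, the prostacyclin receptor, was the opposite. It had 59.6 and 64.2 CPM in KAT8-deficient R848, 58.1 and 59.5 in KAT8-deficient untreated, 104 and 102 in WT R848 and 92.3 and 100.4 in WT untreated libraries, and was lower by 0.73 under R848 (SE 0.069, edgeR adjusted p = 0.000566) and by 0.71 untreated (SE 0.069, edgeR adjusted p = 0.0023). Ptger3, encoding EP3, was higher under R848 (log2 0.98, SE 0.27, edgeR adjusted p = 0.0469) at 4.19 and 3.02 CPM in KAT8-deficient and 1.39 and 2.25 CPM in WT libraries, and passed in 2 of the 8 refits without 1 library. The stromal sums given beside Ptgs1 were higher in the same genotype as Hpgds, Ptgis and Ptger3, and their part was not tested. Untreated, Hpgds overlapped between genotypes (log2 0.085, SE 0.073, edgeR adjusted p = 0.566), while the fibroblast and stroma sums did not. Only 3 of 7 further prostanoid receptor genes had enough reads to be tested.

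All 5 genes listed for prostanoid export, uptake and breakdown were tested. Slco2a1, the prostaglandin transporter, was higher in KAT8-deficient cells under R848 (log2 0.65, SE 0.12, edgeR adjusted p = 0.00941, and 0.0773 without WT R848 replicate 1). Its mean was 23.2 CPM in KAT8-deficient R848, 26.4 in KAT8-deficient untreated, 14.8 in WT R848 and 19.03 in WT untreated libraries. These means had the same order of the groups as the stromal sum, whose part was not tested. The KAT8-deficient R848 and untreated libraries overlapped for Slco2a1 and could not be ordered. Ptgr1, a prostaglandin reductase, was lower under R848 (log2 -0.29, SE 0.061, edgeR adjusted p = 0.0152, and up to 0.0993 without a library of that comparison). Hpgd, which inactivates prostaglandin E2, was higher in untreated KAT8-deficient cells (log2 1.16, SE 0.24, edgeR adjusted p = 0.0335) at 6.04 and 5.88 CPM, against 3.08 and 2.23 CPM in WT libraries, and was lost without any of those 4 libraries (adjusted p up to 0.174).

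Of 9 tested leukotriene and lipoxygenase enzymes, 2 rose and 2 fell with R848 in WT cells, where 6.94% of all genes rose and 6.7% fell. Abcc1, the exporter of leukotriene C4, rose by 1.01 (SE 0.088, edgeR adjusted p = 0.000215) and was lower in KAT8-deficient cells under R848 by 0.70 (SE 0.088, edgeR adjusted p = 0.00141). Its levels were 141 and 172 CPM in KAT8-deficient R848, 122 and 123 in KAT8-deficient untreated, 254 and 255 in WT R848 and 125 and 127 in WT untreated libraries. Lta4h, which makes leukotriene B4, fell by 0.36 in WT cells (SE 0.059, edgeR adjusted p = 0.00484). Dpep2, a dipeptidase that converts leukotriene D4 to E4, rose by 0.27 in WT cells (SE 0.057, edgeR adjusted p = 0.015, lost without any of the 4 WT libraries) and was lower by 0.39 in KAT8-deficient cells under R848 (SE 0.057, edgeR adjusted p = 0.00313). Cyp4f18, which degrades leukotriene B4, fell by 0.79 in WT cells (SE 0.17, edgeR adjusted p = 0.0174), and Ggt5, which converts leukotriene C4 to D4, was higher by 1.28 in KAT8-deficient cells under R848 (SE 0.27, edgeR adjusted p = 0.0144). Without 1 library these had adjusted p up to 0.112 for Cyp4f18, lost without either WT R848 library or WT untreated replicate 2, and up to 0.0988 for Ggt5, lost without KAT8-deficient R848 replicate 1 or either WT R848 library. Ggt5 averaged 3.68 CPM in KAT8-deficient R848, 4.45 in KAT8-deficient untreated, 1.52 in WT R848 and 2.10 in WT untreated libraries. These means were again in the group order of the stromal sum, whose part was not tested. The KAT8-deficient R848 and untreated libraries overlapped for Ggt5 and could not be ordered. Untreated, Ggt5 was higher (log2 1.09, edgeR adjusted p = 0.0493) and Cyp4f18 lower (log2 -0.78, edgeR adjusted p = 0.0424) in KAT8-deficient cells, passing in 2 and 0 of the 8 refits without 1 library.

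Of 4 tested receptors for leukotrienes, lipoxins and resolvins, 3 rose with R848 in WT cells, where 6.94% of all genes did. Fpr2, a formyl peptide and lipoxin receptor, had 4.67 and 8.54 CPM in KAT8-deficient R848, 2.20 and 2.51 in KAT8-deficient untreated, 30.6 and 26.1 in WT R848 and 5.08 and 4.02 in WT untreated libraries. It rose by 2.63 in WT cells (SE 0.25, edgeR adjusted p = 0.00031) and was lower by 2.10 in KAT8-deficient cells under R848 (SE 0.24, edgeR adjusted p = 0.00101). Cmklr1, a receptor for chemerin and resolvin E1, rose by 0.90 (SE 0.11, edgeR adjusted p = 0.00088) and was lower by 0.68 (SE 0.10, edgeR adjusted p = 0.00365) in the same comparisons. Cysltr1, a cysteinyl leukotriene receptor, rose by 0.56 in WT cells (SE 0.14, edgeR adjusted p = 0.0292) and passed in 4 of the 8 refits without 1 library. The leukotriene B4 receptor gene Ltb4r1 had too few reads to be tested.

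All 7 genes of platelet-activating factor, the lipid that Pla2g7 breaks down, were tested. Lpcat2, its synthetic enzyme in activated macrophages, had 34.3 and 37.7 CPM in KAT8-deficient R848, 18.2 and 21.8 in KAT8-deficient untreated, 72.0 and 67.8 in WT R848 and 25.3 and 26.2 in WT untreated libraries. It rose with R848 by 1.44 in WT cells (SE 0.098, edgeR adjusted p = 9.4e-05) and by 0.85 in KAT8-deficient cells (SE 0.10, edgeR adjusted p = 0.023, lost without KAT8-deficient R848 replicate 2, KAT8-deficient untreated replicate 1 or WT R848 replicate 1, with adjusted p up to 0.128), and was lower by 0.96 in KAT8-deficient cells under R848 (SE 0.096, edgeR adjusted p = 0.000648). Ptafr, the receptor, rose by 0.39 in WT cells (SE 0.061, edgeR adjusted p = 0.00406) and was lower by 0.32 in KAT8-deficient cells under R848 (SE 0.061, edgeR adjusted p = 0.0107, lost without KAT8-deficient R848 replicate 1 or WT R848 replicate 1, with adjusted p up to 0.083). Pafah1b1, a subunit of an intracellular acetylhydrolase, was higher in KAT8-deficient cells by 0.68 in both states (SE 0.075, edgeR adjusted p = 0.000927 under R848 and 0.00395 untreated).

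**Figure D4:**
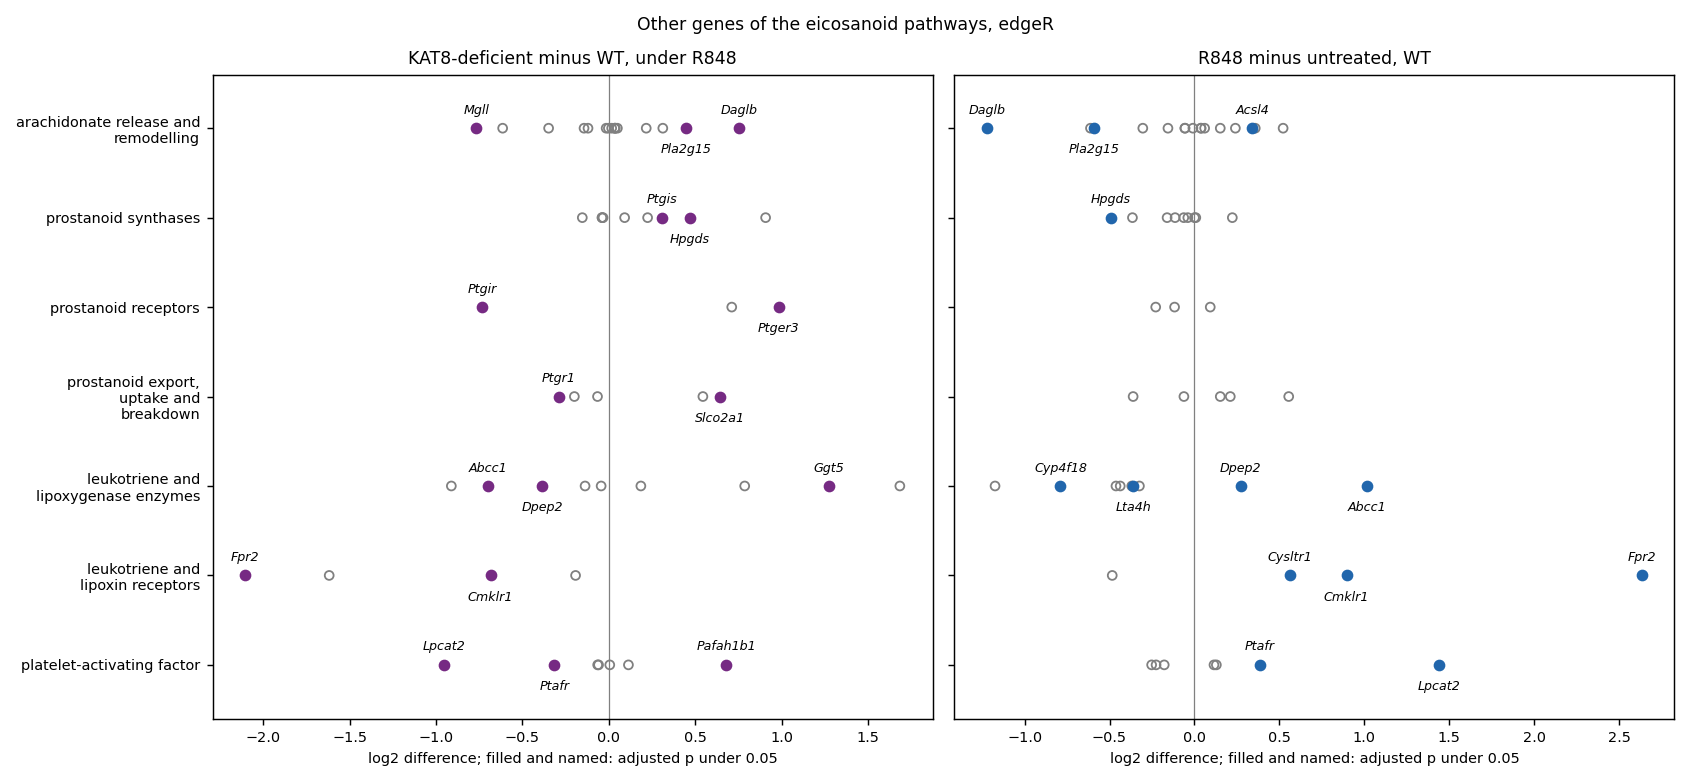
Log2 differences (x axis) of 53 other tested eicosanoid genes, 1 row per list, in KAT8-deficient against WT cells under R848 (left) and with R848 against untreated in WT cells (right), which share the WT R848 libraries; filled, named points passed an edgeR adjusted p of 0.05. Fpr2 lies at -2.10 on the left and 2.63 on the right, and Lpcat2 at -0.96 and 1.44.

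Exons of 6 of the 10 genes overlap another annotated gene, so that without a stated strand setting some reads could belong to either. The overlaps ran from 82 bases, of Ptger4 with Ttc33, to 1015 bases, of Ptger4 with the pseudogene Gm15937. Ttc33 had 277 to 605 reads per library, where Ptger4 had 397 to 608. The antisense gene Gm26542 overlaps 268 bases of Ltc4s and had 0 to 5 reads per library.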

How the data were processed

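Messenger RNA of 8 BMDM libraries was measured. The authors deposited counts per Ensembl gene, as the headers of the table name them, and the headers do not say how these were derived. StringTie 1.3.0, HISAT2, edgeR and mm10 are listed in the submitters' processing notes, without their roles. The sources used here give no annotation or strand setting, so reads of overlapping genes could be split.

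All 8 columns were matched by name. Of 34745 identifiers, 34267 had a symbol in GENCODE M21 (GRCm38), and Plaat3 and Prxl2b were found through RefSeq synonyms. The replicates of a group differed by more than counting error (chi-square per degree of freedom 7.65 to 12.4). Genes were filtered with filterByExpr, normalised by TMM and fitted over all 8 libraries with edgeR 4.0.16 (quasi-likelihood, 4 residual degrees of freedom, R 4.3.3). P-values are two-sided and were adjusted over all 14040 genes by the Benjamini-Hochberg method, with a threshold of 0.05. The SE is the absolute log2 change divided by the square root of F. With 2 libraries per group, a permutation test could not pass 0.05. A floor of 3 counts equals 0.14 to 0.162 CPM and covers counting error only.

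The 10 members, the lists, the motifs and the tests were chosen with earlier results of these data known. All members are named, with called genes of the 7 other lists (up to 4 per list, plus Acsl1 and Cyp4f18, named after their values were seen). Likeness used log2 of CPM plus 0.5 in genes with a mean of at least 5 CPM. Alternatives tried were no filter, DESeq2 size factors, the DESeq2 1.42.0 Wald test, limma-voom (limma 3.58.1), a replicate block, the 4 libraries compared alone and leaving out each library. For the other eicosanoid genes they were added after seeing the data. Simulated counts with known changes tested the method. RefSeq held promoters for 9 of the 10 genes.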

Additional observations from a re-analysis of the deposited data

Results flagged for a closer look

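The R848 response differed between genotypes, by edgeR's interaction test, for 2 of the 53 other eicosanoid genes tested, where 0.228% of all genes passed. Mgll had 57.2 and 56.7 CPM in KAT8-deficient R848, 22.3 and 21.9 in KAT8-deficient untreated, 93.0 and 100.9 in WT R848 and 89.6 and 96.5 in WT untreated libraries, an interaction of 1.305 on the log2 scale (SE 0.10, edgeR adjusted p = 0.00291), which passed under each of the 13 alternatives. Its untreated genotype difference was -2.07 (SE 0.074, edgeR adjusted p = 7.05e-06) and its response in KAT8-deficient cells 1.37 (SE 0.074, edgeR adjusted p = 0.000464). Daglb fell less in KAT8-deficient than in WT cells, with an interaction of 0.703 (SE 0.099, edgeR adjusted p = 0.0373). That call was lost with the replicate block and without 6 of the 8 libraries (every one but KAT8-deficient R848 replicate 2 and WT untreated replicate 1), with adjusted p up to 0.155.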

How the results depend on the processing

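Of the 12 member results that passed, 5 passed under each alternative: Ptgs1, Ptgs2 and Ptges for R848 in WT cells, and Ptgs1 and Ptges between genotypes under R848. Of the 43 results of other eicosanoid genes that passed, 25 did. With no low-count filter, 1 member passed for R848 in KAT8-deficient cells, where 274 of 20462 genes did, with 8 other eicosanoid genes. Between untreated genotypes 2 members and 871 of all genes passed, and under R848 6 and 2053. For the interaction these numbers were 2 and 245. By the DESeq2 Wald test, 2 members passed between untreated genotypes, where 566 of 14040 genes did, and 5 under R848, where 1500 did. For the interaction 1 member and 231 of all genes passed. For R848 in KAT8-deficient cells 238 of all genes and 7 other eicosanoid genes passed. With the 4 libraries compared alone, 2 members passed between genotypes under R848, where 1521 of 13729 genes did. For R848 in KAT8-deficient cells 22 of all genes and 1 other eicosanoid gene passed. Between untreated genotypes 384 of all genes passed. By limma-voom 5 members passed between genotypes under R848, where 1872 of 14040 genes did. Between untreated genotypes 5 other eicosanoid genes and 579 of all genes passed.

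Deviations of same-numbered libraries were hardly correlated between groups (-0.042 to 0.053 over genes). This cannot show whether the replicate numbers pair mice or dishes. With the replicate block, the members passing for R848 in WT numbered 5, and the other eicosanoid genes for the interaction 1, where 1875 and 25 of all genes passed. The numbers of members in the other comparisons were as in the fit without it.

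Leaving out each library gave these ranges. For R848 in WT, 3 to 6 members, 858 to 1826 of all genes and 9 to 14 other eicosanoid genes passed. For R848 in KAT8-deficient cells these were 0 to 1, 2 to 186 and 1 to 7. Between untreated genotypes they were 0 to 2, 66 to 606 and 3 to 9, and under R848 2 to 4, 784 to 1894 and 11 to 17. For the interaction they were 0 to 2, 6 to 208 and 1 to 4.

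Signs reversed only among results that did not pass, nearly all without 1 library. For R848 in WT, Ltc4s was 0.029 by limma-voom and -0.399 to 0.509 without 1 library, and Alox5 -3.092 to 0.162. For R848 in KAT8-deficient cells, Ptgs2 was -0.53 to 0.073 without 1 library, and Pla2g4a 0.017 without KAT8-deficient R848 replicate 2 and 0.032 without KAT8-deficient untreated replicate 1, with a lowest value of -0.088. Between untreated genotypes without 1 library, Ptger2 was -0.088 to 0.177 (and -0.044 without WT untreated replicate 1), Alox5 -0.012 to 0.167, Alox5ap -0.042 to 0.197 and Ltc4s -0.002 to 0.912. For the interaction, Ptger2 was -0.056 to 0.208 (and -0.028 without WT untreated replicate 2) and Ltc4s -0.4 to 0.513. Where an alternative changed a call the cause was not tested. The members with the fewest reads per library were Alox5, at 2 to 30, and Ltc4s, at 18 to 45.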
